A study of Mus musculus with 8 samples.

Results

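The transcripts described here are those of GPVI, the collagen receptor of MKs and platelets, of CLEC-2, their podoplanin receptor, and of the cascade that both receptors share. They were chosen by gene symbol, and all 9 members (Gp6, Fcer1g, Clec1b, Syk, Lat, Lcp2, Plcg2, Btk and Vav1) had a row among the 13387 genes of the count table. Expression was measured by bulk RNA-Seq in 8 libraries of wild-type C57BL/6 mouse cells, with 4 libraries of MKs cultured alone and 4 of MKs cocultured with wild-type marrow MSCs that had been sorted as CD45-Ter119-CD31-CD51+CD140a+ cells. The cultures lasted 18 hours, the medium of both groups contained thrombopoietin, and MKs had been enriched from flushed marrow with CD41 beads. Wells were pooled for each library. The labels name the sequenced cells as MKs taken away from the platelets, whereas the methods describe platelet RNA, so the values are given as those of the libraries labelled megakaryocyte. The study's legend counts its replicates as mice, but the labels do not tie a library to its own animal, so p-values are given as measuring the spread between libraries, part of which may be technical.

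GPVI has no ITAM of its own and reaches the cell surface with the Fc receptor gamma-chain (gene Fcer1g), a small dimer that carries this immunoreceptor tyrosine-based activation motif with its pair of tyrosines. CLEC-2 (gene Clec1b) carries a single such tyrosine, called a hemITAM. Src family kinases phosphorylate the ITAM tyrosines when collagen binds GPVI, and the kinase SYK docks on the phosphorylated tyrosines of both motifs. SYK then phosphorylates the adaptors LAT and SLP-76 (gene Lcp2), on which BTK, the exchange factor VAV1 and phospholipase C gamma 2 (gene Plcg2) assemble to raise calcium and activate platelet integrins. Most of this cascade is shared with neutrophils, macrophages, mast cells and B cells, which use it downstream of Fc receptors and the B cell receptor, whereas Gp6 is largely restricted to MKs and platelets.

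The coding bases of both activation motifs are shown because they set these receptors apart from the rest of the members. They were read from the GENCODE vM21 transcripts on GRCm38, with the codons of the marked tyrosines and of the leucines that follow them in capitals. The Fcer1g motif spans codons 65 to 79 of 86, in exons 4 to 5 of the 5 exons of Fcer1g-201, and lies at chr1:171229889-171230072 on the minus strand. The Clec1b motif spans codons 3 to 10 of 229, in exon 1 of the 6 exons of Clec1b-201, and lies at chr6:129397621-129397644 on the plus strand.
Fcer1g ITAM: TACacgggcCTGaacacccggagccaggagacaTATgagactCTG
Clec1b hemITAM: gatgaagatgggTATatcactTTA
The ITAM pattern, searched as a tyrosine, 2 residues and a leucine or isoleucine repeated after 6 to 12 residues, was present in 1404 of 21765 protein-coding genes (6.45%), and the hemITAM pattern in 6 of them (0.0276%). Among the members, Fcer1g alone held the former and Clec1b alone the latter.

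The promoters of the 3 receptor genes are shown to describe their sequence, and no link between them and the transcript levels was tested. They come from RefSeq on GRCm38.p6, run from 250 bases before to 50 bases after the start of each gene, and are written on the strand of the gene. Capitals mark AGATAA or its reverse complement TTATCT, a core recognised by GATA factors, and AGGAAG or its reverse complement CTTCCT, a core recognised by ETS factors. These motifs do not overlap each other in the windows printed here. The Gp6 window lies at chr7:4397695-4397994 (minus strand), that of Fcer1g at chr1:171234300-171234599 (minus strand) and that of Clec1b at chr6:129397047-129397346 (plus strand).
Gp6 promoter: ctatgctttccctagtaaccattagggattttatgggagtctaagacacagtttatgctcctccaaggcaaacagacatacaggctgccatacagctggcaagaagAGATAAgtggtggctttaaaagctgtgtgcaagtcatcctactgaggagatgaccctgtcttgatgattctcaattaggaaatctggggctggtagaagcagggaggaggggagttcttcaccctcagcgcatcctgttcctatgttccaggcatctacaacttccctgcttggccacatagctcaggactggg
Fcer1g promoter: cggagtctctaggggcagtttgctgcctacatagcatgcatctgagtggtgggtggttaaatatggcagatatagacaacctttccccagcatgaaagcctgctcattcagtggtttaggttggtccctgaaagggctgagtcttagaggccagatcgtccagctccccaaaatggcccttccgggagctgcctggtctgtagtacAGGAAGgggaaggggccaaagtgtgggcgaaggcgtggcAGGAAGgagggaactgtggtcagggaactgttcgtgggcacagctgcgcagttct
Clec1b promoter: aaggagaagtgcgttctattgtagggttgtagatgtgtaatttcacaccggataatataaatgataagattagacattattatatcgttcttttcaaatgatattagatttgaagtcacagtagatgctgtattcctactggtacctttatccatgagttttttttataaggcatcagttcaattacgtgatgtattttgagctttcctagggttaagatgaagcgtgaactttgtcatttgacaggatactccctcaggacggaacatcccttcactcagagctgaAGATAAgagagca
The GATA letters started 144 bases before the start of Gp6 and 37 bases after that of Clec1b, and the Fcer1g window held the ETS letters at 44 and 5 bases before the start. All 9 members had a promoter in the RefSeq table, in 10 windows because Syk had 2. The GATA letters were found in 4 members (Gp6, Clec1b, Lcp2 and Plcg2) and in 11.2% of all 32851 promoters. The ETS letters were found in 5 members (Fcer1g, Lat, Lcp2, Btk and Vav1) and in 35.4% of all promoters. A match describes the letters and is no evidence of binding.

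Library totals ran from 4939874 to 12523616 counts. Between 12406 and 12622 genes had a count in MKs cultured alone, against 13104 to 13193 in coculture replicates 1, 2 and 4, and 10735 in coculture replicate 3, which had the highest total of all. Because this library stood apart, the fold changes and ratios of the members and the calls of most pathway lists are given with and without it. Levels are in CPM, counts scaled to the TMM-adjusted size of the library, and 3 counts, taken as the floor of detection, corresponded to 0.283 to 0.660 CPM. Fold changes are those of cocultures over MKs cultured alone from edgeR's quasi-likelihood test, in which 11722 genes passed the filter on low counts, all 9 members among them. Calling a gene took an adjusted p of at most 0.05, a change of 2-fold or more and a group mean reaching 1 CPM.

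Lower transcript levels of Syk, Btk and Vav1 were found in the cocultures, with falls of 2.30-fold, 4.54-fold and 2.17-fold. These were 3 of the 9 members, against 7.31% of all genes called lower. No member was called higher, where 13.2% of all genes were. At an unadjusted p under 0.05, 6 members were lower and 0 higher, against 14.5% and 21.7% of all genes. DESeq2 called 4 lower (Plcg2 in addition) and 0 higher, against 10.7% and 15.8%. Without coculture replicate 3, 7 of the 9 members were called lower (all but Clec1b and Lat), against 15.4% of all genes, and 0 were called higher, against 20.6%. Every coculture lay below every library of MKs cultured alone for Syk, Btk, Lcp2, Plcg2 and Vav1, which is 5 of 9 members against 21.1% of all genes tested. The median log2 fold change was -1.12 over the members and 0.03 over all genes tested, and -1.25 and 0.03 without that replicate. These are bulk values, in which fewer cells of a type and less RNA per cell cannot be told apart.

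**Figure D1:**
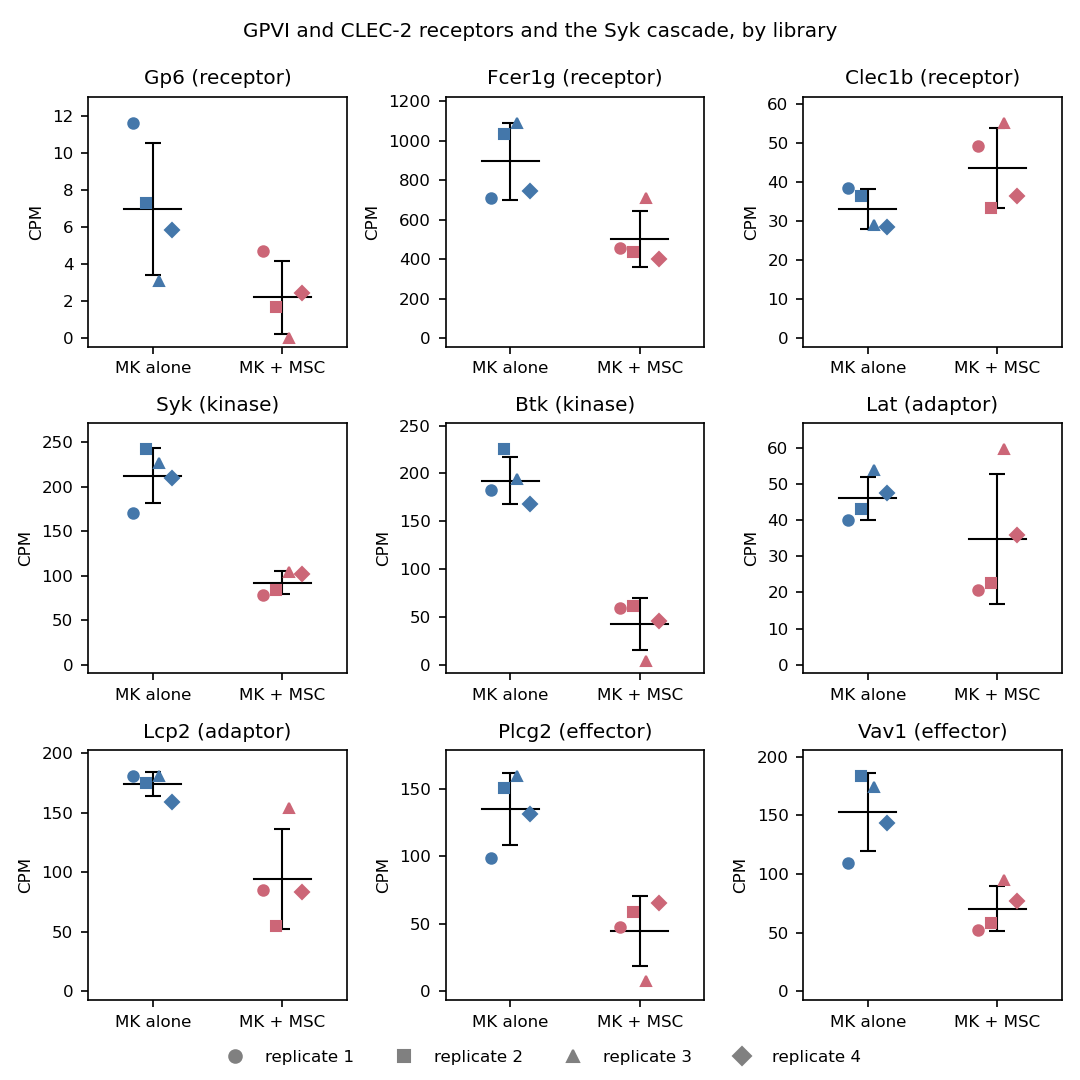
Level of each member in CPM (y axis, from 0) in the 4 libraries of MKs alone and the 4 cocultures (x axis), with the symbol giving the replicate number and the bar and whiskers the mean ± SD. The groups are separate for Syk, Btk, Lcp2, Plcg2 and Vav1, and coculture replicate 3 (triangle) is the lowest coculture for Gp6, Btk and Plcg2 and the highest for the other 6 members.

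The fitted changes of the receptor genes differed in sign, and with all libraries only that of Fcer1g passed the test. Gp6 (chr7:4363965-4397744, minus strand, 8 exons) was measured at 11.7, 7.29, 3.09 and 5.84 CPM in replicates 1 to 4 of MKs cultured alone, and at 4.72, 1.69, 0 and 2.42 CPM in the cocultures. Behind these levels stood 53, 71, 28 and 36 counts in MKs cultured alone and 50, 13, 0 and 14 in the cocultures. The groups overlapped, since the highest coculture lay above the lowest library of MKs cultured alone, and coculture replicate 3 held no count, which allows up to 0.313 CPM. The log2 fold change of -1.64 (SE 1.06) had a 95% interval from -4.05 to 0.76 and was not called (edgeR adjusted p = 0.302). It was -1.20 (SE 0.47) without coculture replicate 3 and was then called (edgeR adjusted p = 0.0401).

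Fcer1g (chr1:171229572-171234365, minus strand, 5 exons), the signalling partner of GPVI, was measured at 711, 1034, 1092 and 746 CPM in MKs cultured alone and at 455, 439, 711 and 403 CPM in the cocultures. Coculture replicate 3 reached the lowest library of MKs cultured alone, and the other 3 cocultures lay below all 4. Its log2 fold change was -0.84 (SE 0.25), which passed the test (edgeR adjusted p = 0.0410) with a fall of 1.78-fold, short of the 2-fold cutoff. Without coculture replicate 3 this was -1.07 (SE 0.20) and called (edgeR adjusted p = 0.000208). The gamma-chain also serves the Fc receptors of myeloid and mast cells, and markers of those cells moved between the groups (values given with the marker lists).

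Clec1b (chr6:129397297-129409335, plus strand, 6 exons), the receptor for podoplanin, was measured at 38.5, 36.5, 28.9 and 28.5 CPM in MKs cultured alone and at 49.3, 33.5, 55.3 and 36.5 CPM in the cocultures. Replicates 1 and 3 of the cocultures were above all libraries of MKs cultured alone, and the other two lay within their range. Its log2 fold change of 0.40 (SE 0.28) had a 95% interval from -0.24 to 1.03 and was not called (edgeR adjusted p = 0.343), with 0.25 (SE 0.21) and a 95% interval from -0.19 to 0.69 without coculture replicate 3 (edgeR adjusted p = 0.319). A fall as large as those of Syk or Btk lay outside both intervals. The gene model of Clec9a, another C-type lectin, overlaps Clec1b on the same strand and has no row in the table used here.

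SYK, the kinase that docks on the phosphorylated motif, had the smallest standard error among the members. Syk (chr13:52583173-52648792, plus strand) was measured at 171, 242, 227 and 210 CPM in MKs cultured alone and at 78.5, 84.4, 105 and 102 CPM in the cocultures. All cocultures lay well below all libraries of MKs cultured alone, coculture replicate 3 included. Its log2 fold change was -1.20 (SE 0.19) with all libraries (edgeR adjusted p = 0.00236) and -1.29 (SE 0.18) without coculture replicate 3 (edgeR adjusted p = 1.51e-05). Syk was called lower with any 1 of the 8 libraries left out.

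BTK, a Tec family kinase that phosphorylates phospholipase C gamma 2, gave the largest fall among the members as a fold change. Btk (chrX:134542336-134583570, minus strand) was measured at 183, 225, 194 and 168 CPM in MKs cultured alone and at 59.1, 61.4, 3.55 and 45.8 CPM in the cocultures. Coculture replicate 3, with 34 counts, was far below the other 3 cocultures, which were themselves below all libraries of MKs cultured alone. The log2 fold change of Btk was -2.18 (SE 0.67) with all libraries (edgeR adjusted p = 0.0464) and -1.81 (SE 0.18) without coculture replicate 3 (edgeR adjusted p = 4.12e-07). The call was lost when any 1 of the other 7 libraries was left out while coculture replicate 3 was kept, and with scaling by library size only (edgeR adjusted p = 0.0777).

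The adaptors LAT and SLP-76, the scaffold of the signalling complex, were not called with all libraries. Lat (chr7:126363824-126369570, minus strand) was measured at 40.0, 42.9, 53.7 and 47.5 CPM in MKs cultured alone and at 20.7, 22.7, 59.5 and 36.0 CPM in the cocultures. Coculture replicate 3 was the highest of all 8 libraries, and the other 3 cocultures were below all libraries of MKs cultured alone. The log2 fold change of Lat was -0.41 (SE 0.37, edgeR adjusted p = 0.474), and -0.83 (SE 0.22) without coculture replicate 3, which passed the test but not the fold cutoff (edgeR adjusted p = 0.00477). Lcp2 (chr11:34046920-34092295, plus strand) was measured at 181, 175, 181 and 160 CPM in MKs cultured alone and at 85.0, 54.8, 154 and 83.3 CPM in the cocultures. Coculture replicate 3 came within a few CPM of the lowest library of MKs cultured alone, and the groups did not overlap. For Lcp2, the log2 fold change was -0.89 (SE 0.30, edgeR adjusted p = 0.0625), and -1.25 (SE 0.19) without that replicate, when it was called (edgeR adjusted p = 2.98e-05).

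Of the effectors, Vav1, a guanine nucleotide exchange factor for Rac, was called lower and Plcg2, the enzyme that produces the second messengers for calcium release, was called by edgeR once coculture replicate 3 was left out and by DESeq2 with all libraries. Vav1 (chr17:57279100-57328031, plus strand) was measured at 110, 184, 174 and 144 CPM in MKs cultured alone and at 52.1, 58.1, 94.8 and 77.1 CPM in the cocultures, without overlap. Vav1 had a log2 fold change of -1.12 (SE 0.26, edgeR adjusted p = 0.0159) and -1.32 (SE 0.21, edgeR adjusted p = 6.00e-05) without coculture replicate 3. The call was lost without MK-alone replicate 2 or 3 and without coculture replicate 1 or 2. Plcg2 (chr8:117498291-117635142, plus strand) was measured at 98.5, 150, 160 and 131 CPM in MKs cultured alone and at 47.6, 58.8, 7.40 and 65.3 CPM in the cocultures. All cocultures were lower, and coculture replicate 3, with 71 counts, was the lowest. For Plcg2, the log2 fold change was -1.59 (SE 0.55, edgeR adjusted p = 0.0693), and -1.26 (SE 0.20, edgeR adjusted p = 5.44e-05) without that replicate. DESeq2 gave -1.63 with all libraries (DESeq2 adjusted p = 0.0161).

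**Figure D2:**
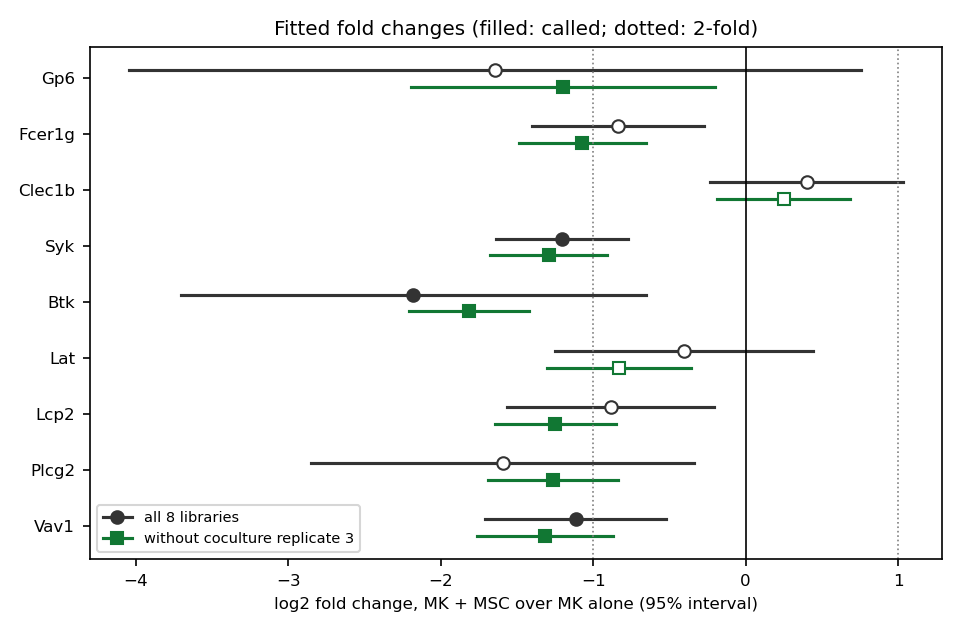
Fitted log2 fold change of each member with its 95% interval (x axis, MK + MSC over MK alone), with all 8 libraries (circles) and without coculture replicate 3 (squares), filled where called. The intervals of Gp6, Btk and Plcg2 narrow most without that library, and Clec1b is the only member with a positive value (0.40 and 0.25).

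Per kilobase of transcript, which allows levels to be compared between genes, Fcer1g stood highest and Gp6 lowest in both groups. In MKs cultured alone the mean level in CPM per kilobase was 1329 ± 290 for Fcer1g, 75.8 ± 9.62 for Btk, 51.6 ± 11.3 for Vav1, 47.8 ± 2.79 for Lcp2 and 39.6 ± 5.71 for Syk (SD, n = 4). It was 37.3 ± 4.83 for Lat, 31.4 ± 6.28 for Plcg2, 30.4 ± 4.69 for Clec1b and 1.18 ± 0.61 for Gp6. From Vav1 down to Clec1b the SD ranges of neighbours overlapped. In the cocultures the mean level per kilobase was 745 ± 209 for Fcer1g, 40.0 ± 9.50 for Clec1b, 28.1 ± 14.5 for Lat, 25.9 ± 11.5 for Lcp2 and 23.8 ± 6.53 for Vav1. It was 17.2 ± 2.40 for Syk, 16.7 ± 10.6 for Btk, 10.4 ± 6.04 for Plcg2 and 0.37 ± 0.33 for Gp6. Clec1b, next to last in MKs cultured alone, came directly after Fcer1g in the cocultures, also without coculture replicate 3 (36.5 ± 7.71, n = 3). Btk came after Syk with all 4 cocultures but before it without that replicate (21.8 ± 3.32 against 16.4 ± 2.24). From Clec1b down to Plcg2, the SD ranges of neighbours again overlapped. The length used is that of the transcript of each gene with the longest consensus coding sequence, whereas a shorter isoform in use would give a higher level per kilobase.

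Clec1b and Gp6 were set against each other within each library, and the cell types behind either transcript were not tested. The log2 ratio of Clec1b to Gp6, taken on CPM + 1, was 1.64, 2.18, 2.87 and 2.11 in MKs cultured alone and 3.14, 3.68, 5.81 and 3.45 in the cocultures. Every coculture was above every library of MKs cultured alone, with a mean of 4.02 ± 1.22 against 2.20 ± 0.51 (SD, n = 4 each). The difference of 1.82 had p = 0.0286 in a two-sided exact permutation test, the smallest p that 4 against 4 libraries allow (adjusted p = 0.0381 over 4 ratios). Without coculture replicate 3, in which Gp6 had no count, the difference was 1.22 and p = 0.0571 in the exact permutation test, the smallest possible there. In that library the ratio is set by the added 1 CPM, and with 0.1 CPM added instead the difference over all libraries was 2.77. For Fcer1g to Gp6, the 2 chains of the collagen receptor complex, the log2 ratio was 5.81, 6.96, 8.06 and 6.77 in MKs cultured alone and 6.32, 7.36, 9.48 and 6.88 in the cocultures, with overlap. The difference of 0.61 did not pass the exact permutation test (p = 0.571, adjusted p = 0.571) and was -0.051 without coculture replicate 3 and 1.55 with 0.1 CPM added.

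Btk and Plcg2 were also set against their closest relatives in the cascade. TEC is the other Tec family kinase downstream of GPVI, and the log2 ratio of Btk to Tec was 1.20, 1.71, 1.54 and 1.31 in MKs cultured alone and 0.96, 0.93, -2.63 and 0.46 in the cocultures. All cocultures were lower, and replicate 3 lay far below the others. The difference was -1.51 (exact permutation p = 0.0286, adjusted p = 0.0381) and -0.65 without that replicate (exact permutation p = 0.0571). PLCG1 is the ubiquitous paralogue of PLCG2. The log2 ratio of Plcg2 to Plcg1 was 3.34, 3.60, 3.67 and 3.48 in MKs cultured alone and 1.53, 1.70, -2.78 and 1.62 in the cocultures, again without overlap. Its difference was -3.01 (exact permutation p = 0.0286, adjusted p = 0.0381) and -1.91 without coculture replicate 3 (exact permutation p = 0.0571). Tec itself fell from 70.1 ± 6.11 to 30.4 ± 2.55 CPM and was called lower, whereas Plcg1 was at 10.7 ± 1.30 and 27.7 ± 19.5 CPM and was not called (log2 fold change 1.37, SE 0.49, edgeR adjusted p = 0.0780). In cocultures 1 to 4 Plcg1 was at 15.9, 17.4, 56.8 and 20.6 CPM. Without coculture replicate 3 its log2 fold change was 0.71, which passed the test below the fold cutoff (edgeR adjusted p = 0.0177). The part of each cell type in these ratios was not tested.

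**Figure D3:**
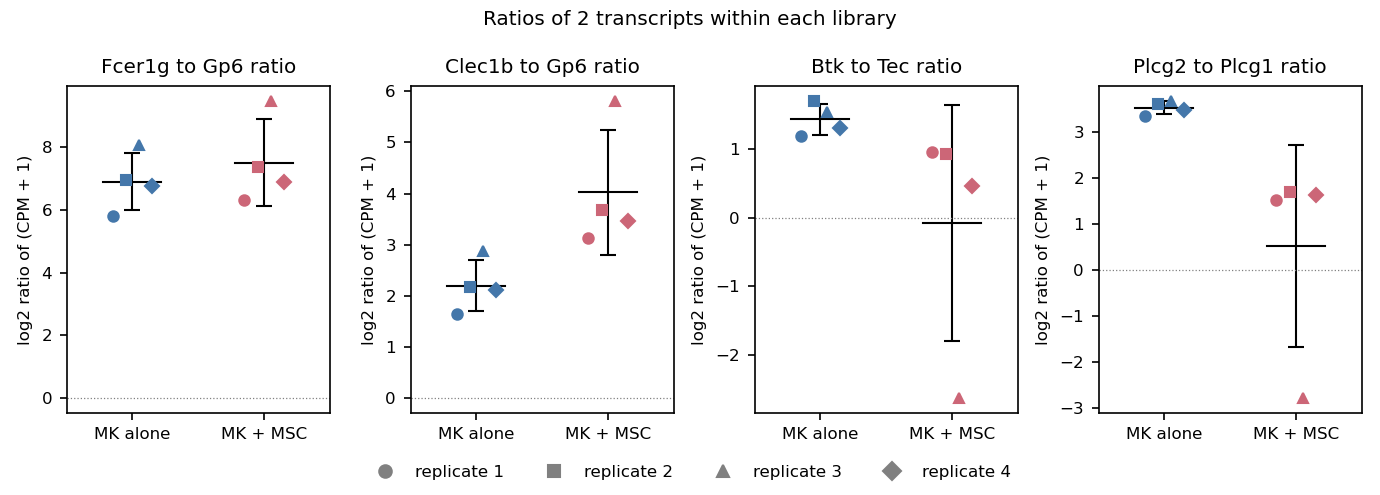
Log2 ratio of (CPM + 1) of 2 transcripts within each library (y axis) for MKs alone and cocultures (x axis), with the mean ± SD and symbols by replicate number. Clec1b to Gp6 is higher in all 4 cocultures and Btk to Tec and Plcg2 to Plcg1 are lower, while Fcer1g to Gp6 overlaps, and coculture replicate 3 (triangle) is the extreme point in every panel.

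The ligands of both receptors moved the other way. Of 7 ligand genes, 6 could be tested and all 6 were called higher in the cocultures (median log2 fold change 6.85). All 7 were called higher without coculture replicate 3. The shares of all genes called higher were 13.2% and 20.6%. Pdpn, Col1a1 and Col3a1, and Lama4 without that replicate, passed the filter on low counts only through the cocultures. Their direction was thus fixed by the filter, and these counts of calls are no test of it. Transcripts of Col3a1 and Col1a1 were nearly absent from MKs cultured alone, where Col3a1 had 1, 0, 0 and 0 counts and Col1a1 had 3, 1, 2 and 1, while the cocultures held 3818, 3251, 805 and 1374 counts of Col3a1 and 5485, 6107, 1102 and 3771 of Col1a1. Col1a2, the second chain of type I collagen, had 5.78 ± 1.90 CPM in MKs cultured alone and 685 ± 240 CPM in the cocultures (log2 fold change 6.89, SE 0.42, edgeR adjusted p = 1.85e-05). Col4a1, a collagen of basement membranes, had 7.80 ± 0.645 and 151 ± 61.6 CPM. Fn1, which encodes fibronectin, had 22.2 ± 2.30 and 635 ± 269 CPM (log2 fold change 4.84, SE 0.40, edgeR adjusted p = 7.50e-05). Pdpn, the podoplanin that CLEC-2 binds, had 0, 2, 2 and 2 counts in MKs cultured alone and 263, 202, 252 and 110 in the cocultures. These genes are also typical of stromal cells, and the summed level of 8 MSC markers was 59.2 to 79.6 CPM in MKs cultured alone and 699 to 2150 CPM in the cocultures, with 4 of 5 tested markers called higher (Cxcl12, Pdgfrb, Sparc and Itgav). Cxcl12 and Sparc likewise passed the filter only through the cocultures. Sparc, the most abundant of them, was at 0.546 ± 0.432 and 960 ± 360 CPM. The part of MSC RNA in the ligand values was not tested.

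More of the other genes downstream of the receptors were called lower than higher. Of 22 such genes, 6 were called lower (Dapp1, Rasgrp2, Tec, Bin2, Prkcd and Pik3r1), 1 higher (Akt1) and 15 not called. Their median log2 fold change was -0.88. Over all genes tested, 7.31% were called lower and 13.2% higher. Without coculture replicate 3, 11 were called lower and 1 higher, the 7 genes just named among them, against 15.4% and 20.6% of all genes. Dapp1, a phosphoinositide-binding adaptor, went from 339 ± 36.8 to 100 ± 7.71 CPM (log2 fold change -1.76, SE 0.17, edgeR adjusted p = 0.000139). Akt1, a kinase recruited by phosphoinositide 3-kinase, rose from 89.3 ± 28.6 to 297 ± 139 CPM (log2 fold change 1.74, SE 0.37, edgeR adjusted p = 0.0107). The most abundant genes of this list were the small GTPases Rap1b and Rac1. Rap1b, a switch for integrin activation, had 3821 ± 1092 and 1972 ± 367 CPM, which passed the test below the fold cutoff (log2 fold change -0.95, SE 0.25, edgeR adjusted p = 0.0252). Rac1 had 717 ± 98.8 and 622 ± 59.7 CPM and was not called (edgeR adjusted p = 0.432).

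Among the inhibitors of the cascade, too, more were called lower than higher. Of 14 negative regulators, 4 were called lower (Ceacam1, Inpp5d, Sla and Ptpn6), 2 higher (Dok1 and Dok2) and 8 not called. Their median log2 fold change was -1.07. Of all genes tested, 7.31% were called lower and 13.2% higher. There were 9 lower and 2 higher without coculture replicate 3, again with the 6 genes just named among them. The shares of all genes were then 15.4% and 20.6%. Ceacam1, a receptor with inhibitory motifs, fell from 230 ± 12.6 to 30.6 ± 11.8 CPM (log2 fold change -2.92, SE 0.33, edgeR adjusted p = 0.000359). Inpp5d, the lipid phosphatase SHIP1, fell from 163 ± 16.6 to 37.6 ± 5.82 CPM (log2 fold change -2.11, SE 0.20, edgeR adjusted p = 0.000128). Sla, a Src-like adaptor, was at 333 ± 42.3 and 97.1 ± 35.2 CPM, and Ptpn6, the tyrosine phosphatase SHP-1, at 280 ± 60.1 and 109 ± 41.1 CPM. The adaptors Dok1 and Dok2 rose, from 17.4 ± 4.48 to 55.4 ± 27.6 CPM and from 18.8 ± 3.22 to 56.7 ± 16.4 CPM. Of 7 Src family kinases, Lyn was called lower and the other 6 were not called, with a median log2 fold change of -0.19. Lyn, which both starts and restrains ITAM signals, fell from 294 ± 24.8 to 116 ± 40.1 CPM (log2 fold change -1.34, SE 0.25, edgeR adjusted p = 0.00492), while Fyn had 60.2 ± 5.66 and 54.0 ± 23.8 CPM (edgeR adjusted p = 0.807). Without coculture replicate 3, Lyn, Fgr and Lck were called lower and Yes1 higher.

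**Figure D4:**
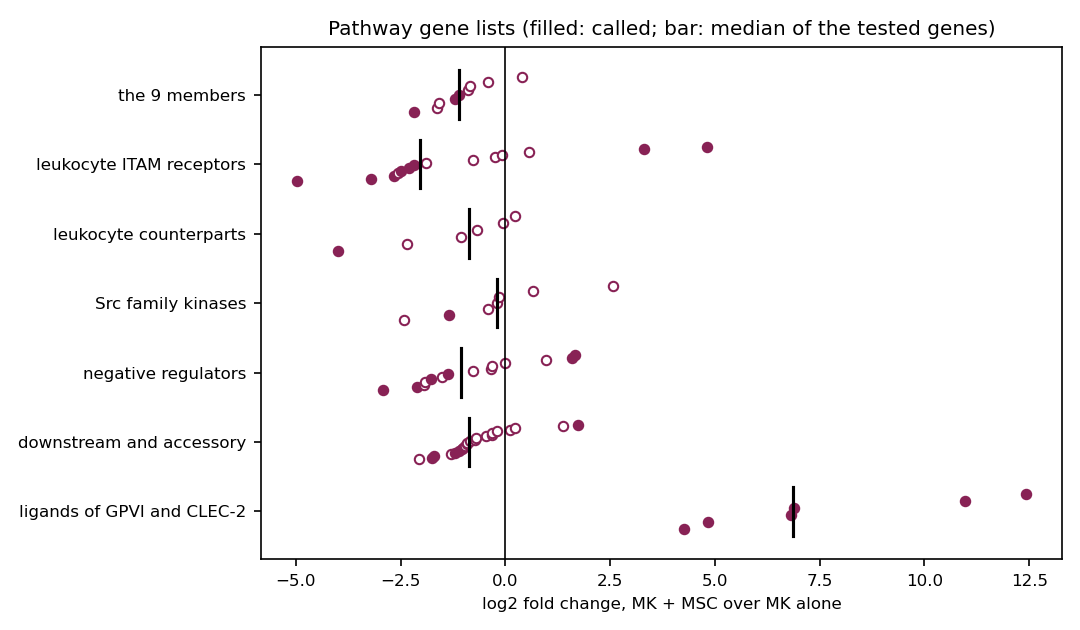
Log2 fold change of each tested gene (x axis, MK + MSC over MK alone) in the pathway lists (y axis), filled where called, with a bar at the list's median. The 6 ligands all lie to the right. Pdpn, Col1a1 and Col3a1 among them passed the filter on low counts only through the cocultures. The 9 members have their median at -1.12.

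The same cascade serves other marrow cells, and their receptors and markers moved between the groups. Of 14 tested leukocyte receptors that signal through an ITAM or hemITAM, 6 were called lower, 2 higher (Trem2 and Clec4n) and 6 not called. The shares of all genes were 7.31% lower and 13.2% higher. Without coculture replicate 3, 9 of 15 were called lower and 3 higher (Fcgr1 in addition), against 15.4% and 20.6% of all genes. Ms4a2, the beta chain of the IgE receptor of mast cells and basophils, fell from 107 ± 44.1 to 3.39 ± 2.78 CPM, and Trem2, a macrophage receptor, rose from 1.39 ± 0.699 to 40.3 ± 31.6 CPM. The most abundant receptors, Clec4e and Clec4d, had 281 ± 56.2 and 327 ± 29.6 CPM in MKs cultured alone and 413 ± 226 and 273 ± 122 CPM in the cocultures, and neither was called (edgeR adjusted p = 0.341 and 0.558). Of 6 leukocyte relatives of the cascade's adaptors and kinases, 1 was called lower, Bmx, a Tec family kinase, with 70.6 ± 17.2 and 4.36 ± 4.40 CPM. Tyrobp, the adaptor DAP12 that carries an ITAM as the gamma-chain does, had 846 ± 160 and 408 ± 221 CPM (log2 fold change -1.05, SE 0.35, edgeR adjusted p = 0.0579, and -1.53 with adjusted p = 5.62e-06 without coculture replicate 3), and Lat2 had 170 ± 11.02 and 163 ± 73.5 CPM.

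Markers of MKs and platelets were present in all libraries, none of 16 at 0 throughout a group, and their summed level was 2633 to 2900 CPM in MKs cultured alone and 1966 to 2569 CPM in the cocultures. Nfe2 alone was called lower among them, and 1 was called higher and 4 lower without coculture replicate 3. For this and the other marker lists, the shares of all genes tested were 7.31% lower and 13.2% higher. Without coculture replicate 3 they were 15.4% and 20.6%. The call of Nfe2, 1 of 16 markers, is thus near the share of all genes. Pf4, the most abundant, had 838 ± 209 and 1067 ± 360 CPM (edgeR adjusted p = 0.409). The 11 neutrophil markers summed to 84305 to 86075 CPM in MKs cultured alone, far above the MK markers, and to 4288 to 10182 CPM in the cocultures, and all 11 were called lower. S100a8 alone fell from 48285 ± 4872 to 4388 ± 1959 CPM. Mast cell and basophil markers summed to 1260 to 1507 and 148 to 301 CPM (4 of 6 tested called lower, Cpa3, Gata2, Kit and Hdc), and Cpa3, a mast cell protease, had 395 ± 53.4 and 20.6 ± 12.9 CPM. B cell markers summed to 566 to 751 and 67.4 to 179 CPM, with Ms4a1 at 380 ± 78.1 and 53.6 ± 35.3 CPM. T and NK cell markers summed to 20.7 to 30.5 and 0.521 to 6.42 CPM (2 of 5 lower, Cd3d and Klrb1c), with Cd8a at 7.04 ± 2.43 and 1.47 ± 1.20 CPM. Klrb1c, at 0.285 ± 0.340 CPM in the cocultures, passed the filter on low counts only through MKs cultured alone. Macrophage markers rose from 255 to 324 CPM to 1088 to 1332 CPM (8 of 10 higher), with Csf1r at 104 ± 26.3 and 262 ± 79.2 CPM. C1qa, C1qb, C1qc and Siglec1 averaged below 1 CPM in MKs cultured alone and passed the filter on low counts through the cocultures. Dendritic cell markers gave 1 rise (Bst2, 12.3 ± 3.07 and 47.0 ± 28.3 CPM) and 2 falls (Flt3 and Cd209a) of 7, with summed levels of 79.6 to 106 and 45.1 to 109 CPM. Erythroid markers summed to 29.2 to 41.1 and 18.3 to 63.7 CPM, with Hbb-bs at 9.97 ± 2.89 and 15.2 ± 25.5 CPM. Syk, Btk, Vav1, Fcer1g, Lcp2 and Plcg2 are expressed by several of these cell types, whose markers moved in both directions. The part of these cells in the values of any member, Clec1b and Lat included, was not tested. Without coculture replicate 3, 11 of 11 neutrophil, 6 of 7 mast cell and basophil and 5 of 6 T and NK cell markers were called lower. So were 6 of 9 B cell and 3 of 5 erythroid markers, while 9 of 10 macrophage and 6 of 7 MSC markers were called higher. Of these MSC markers, Pdgfra, Col6a1, Cxcl12 and Sparc passed the filter on low counts only through the cocultures. Dendritic cell markers then gave 1 rise and 3 falls of 7. When libraries were scaled to the 16 MK and platelet markers instead, the median of all genes shifted to a log2 fold change of 0.37. The scaled log2 fold changes were -1.77 for Btk, -0.89 for Syk, -0.82 for Vav1 and 0.72 for Clec1b, or -2.14, -1.26, -1.19 and 0.35 relative to that median. No member was called on that scale, since Syk and Vav1 passed the test below the 2-fold cutoff and Btk did not pass it (edgeR adjusted p = 0.00636, 0.0266 and 0.0944).

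The genes whose profiles over all 8 libraries, coculture replicate 3 included, were most like those of the receptors were found by the root mean square difference of centred log2(CPM + 1), among genes of at least 10 CPM on average. For Gp6 they were Bmp2k (0.255), 9930111J21Rik2 (0.282) and Ppp1r2 (0.305), where the median gene differed by 1.19. For Clec1b they were Ap1ar (0.0795), Emc2 (0.117) and Trim44 (0.127), against a median of 0.741. For Fcer1g they were Trim65 (0.126), Atp6v1b2 (0.144) and Mkrn1 (0.145), against 0.908. Bmp2k, for example, had 232, 134, 112 and 130 CPM in MKs cultured alone and 92.5, 65.9, 17.5 and 66.2 CPM in the cocultures, with replicate 1 the highest of each group, as for Gp6.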

How the data were processed

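Per the labels, 8 bulk libraries of murine MKs were grouped as MKs cultured alone or cocultured with MSCs. The authors deposited raw counts per gene, whole numbers without normalization, made according to the methods from paired-end SMART-Seq HT reads with fastp and kallisto on mm10. How counts were summed to genes, filtered or assigned to strand is not given in the sources used here, so overlapping and antisense genes are uncertain. The lowest gene total was 11.

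The main test was the quasi-likelihood F test of edgeR 4.0.16, run under R 4.3.3 (TMM, filterByExpr, robust fit, Benjamini-Hochberg adjustment over all 11722 genes tested), without covariates, since the batches of the authors' DESeq2 design are not named. CPM uses TMM-scaled library sizes. SEs and 95% intervals were derived from the fitted F statistics. Ratios used a pseudocount of 1 CPM and two-sided exact permutation tests (scipy 1.17.1, Python 3.11). Alternatives were DESeq2 1.42.0, RLE, library size only, scaling to MK markers, other filters, glmTreat, the replicate block, a pseudocount of 0.1 CPM, and each library left out in turn. The edgeR and DESeq2 fits, but not the permutation tests, were also run on simulated counts. The simulation gave all genes the same dispersion and held no library that stood apart. It therefore does not test how coculture replicate 3 affects the calls. Without molecular identifiers, a floor covers only counting error.

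Members and gene lists were chosen with earlier results of these data known. Genes named besides the members were, of each pathway list, the 2 called genes with the largest change and the 2 most abundant, of each marker list the most abundant, and for each receptor the 3 nearest profiles. Tec and Plcg1 were fixed with the ratios. Any other gene was named after its values were seen. Positions and lengths came from GENCODE vM21 on GRCm38, where no gene overlapping a member has a row in the count table. Promoters came from RefSeq. Results of some listed genes are not reported here.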

Additional observations from a re-analysis of the deposited data

Results flagged for a closer look

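Coculture replicate 3 stood apart from the other 3 cocultures in 4 of the 26 groups of 4 libraries examined, where chance gives about 1 in 20, or 1.3. Its level was 3.07 on the log2(CPM + 1) scale for Plcg2 and 2.18 for Btk. Its log2 ratio was -2.63 for Btk to Tec and -2.78 for Plcg2 to Plcg1. In each case the gap to the next library, as a share of the range of the group, exceeded Dixon's critical value for 4 samples. The ratios hold the same Btk and Plcg2 values and are not separate evidence. The same library had 10735 genes with a count, against 13104 to 13193 in the other cocultures.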

How the results depend on the processing

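Of 152 values of single members under the alternatives, 19 lost the call, 8 gained it and 0 reversed, and the others kept their direction and side of the threshold. Only Syk, Btk and Vav1, the 3 members called in the main fit, could lose a call, so all 19 losses fell on them. With libraries scaled to MK and platelet markers, 0 members were called lower and their median was -0.82, against a median of 0.37 for all genes there. glmTreat, which tests against the 2-fold cutoff itself, called 0 members lower and 15 of the other pathway genes and ligands, against 3 and 29, and DESeq2 with the replicate block called 5 members lower. With 1 library left out, the members called lower ranged from 1 to 7, with 7 without coculture replicate 3 and 1 without MK-alone replicate 2 or 3 or coculture replicate 1 or 2. Calls among the other pathway genes and ligands ranged from 21 to 50 (50 without coculture replicate 3). The log2 ratio differences ranged from -0.051 to 1.003 for the Fcer1g to Gp6 ratio (-0.051, reversed, without coculture replicate 3), from 1.22 to 2.12 for the Clec1b to Gp6 ratio, from -1.85 to -0.65 for the Btk to Tec ratio and from -3.40 to -1.91 for the Plcg2 to Plcg1 ratio. Adding 0.1 CPM in place of 1 gave 1.55, 2.77, -1.57 and -3.11 for these ratios. The exact permutation test cannot go below p = 0.0571 with 4 against 3 libraries. Over all genes, 1544 were called higher and 857 lower, against 818 and 303 by glmTreat, 2323 and 497 with marker scaling and 2530 and 1890 without coculture replicate 3. Of the other named genes, Rac1 (0.14), Fyn (0.22), Lat2 (0.22) and Clec4d (0.022) turned positive with marker scaling. With 1 library left out, Lat2 ranged from -0.45 to 0.087, Fyn from -0.26 to 0.11 and Hbb-bs from -1.999 to 1.07. The cause of these changes was not tested. Gp6 had no value with a filter of 10 counts in every library.

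Libraries with the same replicate number deviated together with r of 0.37, 0.020, 0.15 and 0.028 across genes, all positive. Libraries with different numbers gave r from -0.28 to 0.099. Not every library correlated best with its own number, so these values do not settle whether the numbers pair the libraries. The main fit used no pairing, and the results with it follow. With the replicate block, edgeR called 2 members lower (Syk and Vav1, with Btk log2 fold change -2.57 at adjusted p = 0.0995), and Hbb-bs was -1.22 (-1.26 in DESeq2 with the block). Sign flips within numbers gave the log2 ratio differences of 1.82, -1.51 and -3.01 (Clec1b to Gp6, Btk to Tec, Plcg2 to Plcg1) an exact permutation p of 0.125, the smallest possible there. Depth limits Gp6 most, which had at most 71 counts in any library.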
